A study of Rattus norvegicus with 52 samples.

Results

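The genes described are malic enzyme (Me1), ATP citrate lyase (Acly), fatty acid synthase (Fasn) and the acetyl-CoA carboxylase gene Acaca, which supply and build fatty acids in the cytosol of the liver cell. They were found on the array by the GenBank accession that opens each probe set ID, with every suffix kept: m26594_at for Me1, j05210_at and j05210_g_at for Acly, m76767_s_at for Fasn and j03808_at for Acaca. This gave 5 probe sets of 8740 that are not controls. The suffix s marks, in the array maker's naming, probes shared by more than one sequence. The arrays were hybridised with total RNA of liver sections from F344 rats, an inbred strain, and each of the 52 arrays is 1 sample. Rats had received clofibric acid (CA), a fibrate drug, at 0.29 or 0.54%, and control rats were untreated. Microdissected liver had 1 array with 0.29% CA, 1 with 0.54% CA and 2 from untreated rats. Stained sections numbered 7 with 0.29% CA, 5 with 0.54% CA and 8 from untreated rats. Dehydrated sections, and sections labelled as an LCM reference time, had 1 array at each of the 3 doses. Entire sections, the undissected liver, numbered 8 with 0.29% CA, 6 with 0.54% CA and 8 from untreated rats. LCM is laser capture microdissection, in which chosen regions are cut out of a section under a microscope. The labels give no age, sex, route or length of treatment, no region or cell type for the microdissected samples, and no animal for any section.

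Fatty acid synthesis starts when citrate leaves the mitochondrion and ATP citrate lyase splits it into acetyl-CoA and oxaloacetate. Acetyl-CoA carboxylase turns acetyl-CoA into malonyl-CoA, the committed step, and fatty acid synthase lengthens the chain with NADPH as the reducing agent. Cytosolic malic enzyme converts malate to pyruvate and yields part of that NADPH. In the liver all of these genes are known as targets of insulin and carbohydrate signals through SREBP-1c, ChREBP or thyroid hormone. Malic enzyme is also a known target of PPARα, the nuclear receptor that fibrates activate, which otherwise drives genes of fatty acid oxidation.

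The deposited values are linear intensities, and 20.6 to 30.1% of those on an array lay below 0. Values under a floor of 4, the 10th percentile of all positive intensities, were raised to it before taking log2, and quantile normalization between arrays followed. A probe set was called when its limma p-value, adjusted over all probe sets tested, lay under 0.05. Mean intensity per array was 132 to 196 in stained and 163 to 202 in entire sections. Dividing the signal of the 3' GAPDH probe set by that of the 5' one gives a ratio that goes up when RNA is degraded; its median was 8.45 in the 20 stained arrays and 1.54 in the 22 entire arrays. Of these arrays 6 stood apart: 3 stained arrays had a 5S rRNA intensity above 200, and 3 entire arrays had a GAPDH ratio above 4. Each limit was applied to that preparation alone. In the small preparations, 5S rRNA intensity reached 754 in microdissected and 587 in LCM-reference-time sections. No other probe set could be given a gene name here, so the hepatocyte identity of the sections was not checked and no further gene of the pathway is named.

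The RefSeq promoter table (build GRCr8) held 2 of the 4 genes, and the 250 bases before the start of each are shown because Me1 rose with CA while no Acly change was called. The Me1 promoter lies at chr8:96540245-96540494 and the Acly promoter at chr10:85963632-85963881, both on the minus strand and written 5′ to 3′ along the gene. Capitals mark matches on either strand to TGACNNNGC, the core of the antioxidant response element, to the GC box GGGCGG or to CCAAT, and no match overlaps another.
Me1: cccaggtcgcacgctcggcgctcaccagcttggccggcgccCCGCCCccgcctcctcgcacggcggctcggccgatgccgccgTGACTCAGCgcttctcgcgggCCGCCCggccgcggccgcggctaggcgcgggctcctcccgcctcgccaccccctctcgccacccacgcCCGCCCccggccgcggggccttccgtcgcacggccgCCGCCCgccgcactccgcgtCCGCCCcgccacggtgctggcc
Acly: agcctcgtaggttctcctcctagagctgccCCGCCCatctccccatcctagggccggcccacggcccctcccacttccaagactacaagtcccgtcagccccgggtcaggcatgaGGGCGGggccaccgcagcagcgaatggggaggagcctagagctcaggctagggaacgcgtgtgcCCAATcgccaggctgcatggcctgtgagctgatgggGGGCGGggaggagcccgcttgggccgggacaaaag
Me1 held 1 match to TGACNNNGC, 167 to 159 bases before the start, and 5 to GGGCGG, while Acly held 3 to GGGCGG and 1 to CCAAT. TGACNNNGC occurs in 10.1% of the 33469 promoters of this length in the table, GGGCGG in 30.5% and CCAAT in 34.0%. Neither promoter held AGGTCA, the half-site bound by PPAR and related receptors, which occurs in 14.1% of promoters, nor its direct repeat AGGTCANAGGTCA (0.0508%), nor the E-box CACGTG (5.59%). Only exact matches within these 250 bases were sought. Sites farther upstream, or differing from these letters, were not covered, so the absence of a PPAR site is not shown for either gene. The GC content was 83.2% for Me1 and 68% for Acly, against a median of 51.2% over all promoters.

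Me1 rose strongly with CA in entire sections at both doses. Its intensity had a lowest, median and highest value of 10, 17 and 33 in the 8 controls, 181, 266 and 364 in the 8 arrays at 0.29% CA, and 245, 410.5 and 583 in the 6 arrays at 0.54% CA. Every CA array lay far above every control, and the ranges at the CA doses overlapped each other. The means were 273 ± 69.7 (SD, n = 8) at 0.29% CA and 18.1 ± 7.0 (SD, n = 8) in controls, a 15.4-fold rise after normalization (95% interval 11.7 to 20.3, log2 3.94 ± 0.19, SE, limma adjusted p = 2.49e-12). At 0.54% CA the mean was 417 ± 115 (SD, n = 6), 23.9-fold above control (95% interval 17.8 to 32.3, log2 4.58 ± 0.21, SE, limma adjusted p = 4.1e-13). Among the probe sets called higher, this rise ranked 9 by size of 433 at 0.29% and 12 of 632 at 0.54%. In bulk RNA a change in the share of a cell type and a change in RNA per cell cannot be told apart. Of the 5 probe sets, 2 were called higher at each dose (Me1 and Fasn) and 0 lower, where 5.55% of all probe sets tested were called higher at 0.29% and 8.10% at 0.54%. In deposited intensity, CA arrays lay wholly above controls for 2.04% and 2.79% of all probe sets tested, at 0.29 and 0.54% in that order, and among the 5 for Me1 alone. After normalization Fasn at 0.54% CA did so too, narrowly, with its lowest CA array at log2 5.64 and its highest control at 5.61. The share of all probe sets without overlap was not computed on that scale, so this cannot be set against a background. The median log2 change of the 5, Acaca included, was 0.68 at 0.29% and 0.21 at 0.54%, beside -0.01 over all probe sets tested at either dose. The lower median at 0.54% came from Acaca, mostly at the floor, which went from 0.70 to -0.06. The fitted changes of Me1, Fasn and both Acly probe sets were each somewhat higher at 0.54% than at 0.29%. Without the 6 arrays that stand apart, the rises of Me1 were 15.4-fold and 23.8-fold. The size of the rise depends on the floor here too, since only 2 of the 8 controls exceeded 20. With a floor of 20 the rise at 0.29% CA was 10.4-fold, below the interval given above. At 0.54% CA the lowest rise over the alternatives was 16.2-fold, also below its interval.

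Between the doses, Me1 was 1.55-fold higher at 0.54% than at 0.29% CA in entire sections (95% interval 1.15 to 2.10, log2 0.64 ± 0.21, SE), which did not pass the adjustment over all probe sets (limma adjusted p = 0.192). With a floor of 20 in place of 4, the size was 1.55-fold too and it passed (limma adjusted p = 0.0321). The doses differed at 1.01% of all probe sets tested. None of the 5 was called by limma, with 0 called and 1, Me1, at an unadjusted p under 0.05.

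**Figure D1:**
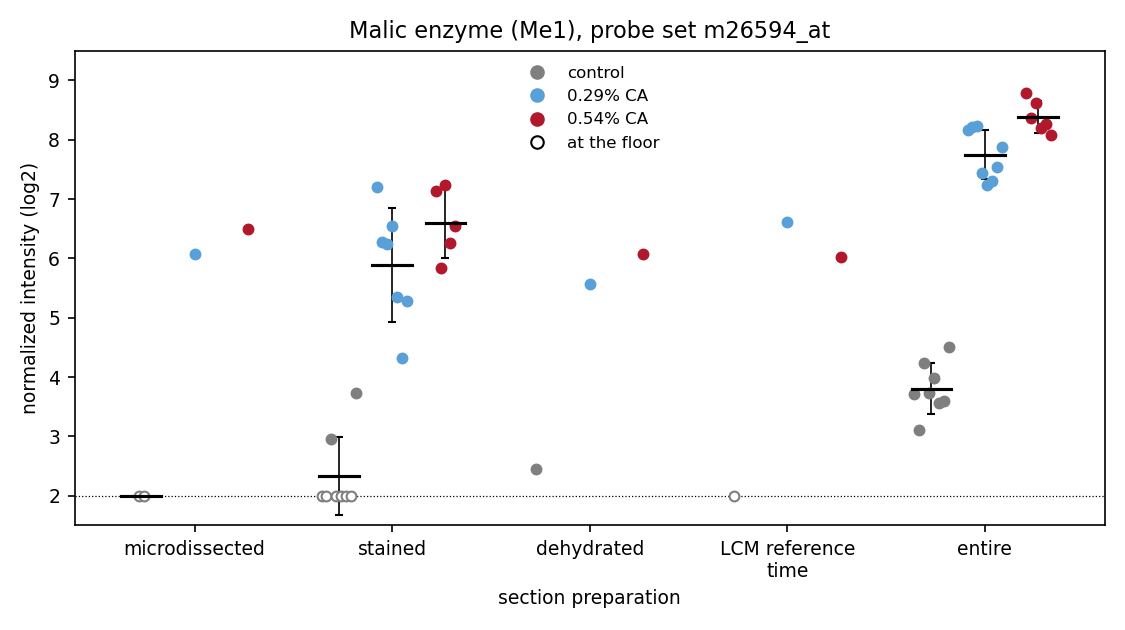
Normalized log2 intensity of Me1 on each of the 52 arrays, by section preparation (x axis) and dose (grey control, blue 0.29% CA, red 0.54% CA). Bars are means and whiskers SDs for groups of more than 1 array, open circles are arrays at the floor (dotted line), and in all 5 preparations every CA array lies above every control of the same preparation.

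Me1 rose in stained sections as well, where its control signal was mostly below the floor. Intensities of the 8 stained controls ran from -5 through a median of 2.0 to 12, and only 2 of them were above the floor. The 7 arrays at 0.29% CA had 17, 73 and 155 as lowest, median and highest value, and the 5 arrays at 0.54% CA had 152, 61, 175, 81 and 88. The CA arrays did not overlap the controls at either dose, and the spread among them was wide: the coefficient of variation was 69% at 0.29% CA in stained sections and 25.5% in entire sections. The fitted rise was 11.75-fold at 0.29% CA (95% interval 6.76 to 20.4, log2 3.55 ± 0.38, SE, limma adjusted p = 4.02e-06) and 19.2-fold at 0.54% CA (95% interval 10.5 to 35.4, log2 4.26 ± 0.42, SE, limma adjusted p = 1.08e-06). Since 6 of 8 controls sat at the floor, these sizes depend on it, and with a floor of 20 they were 2.97-fold (limma adjusted p = 0.00315) and 4.85-fold (limma adjusted p = 1.69e-04). Without the arrays that stand apart they were 14.5-fold and 22.3-fold. Median GAPDH ratios of the stained groups were 10.2 in controls, 7.32 at 0.29% CA and 4.47 at 0.54% CA, and with that ratio in the fit the rises were 10.3-fold (limma adjusted p = 1.23e-05) and 15.2-fold (limma adjusted p = 1.06e-05). Me1 was the only member of the 5 called higher at either dose, against 1.83% of all probe sets tested at 0.29% and 3.12% at 0.54%, and 0 were called lower. The share with CA arrays wholly above controls in deposited intensity was 0.796% at 0.29% and 3.35% at 0.54%. Between the doses Me1 differed by 1.64-fold (95% interval 0.874 to 3.06, limma adjusted p = 0.951). At that contrast 0.0632% of all probe sets tested were called, and of the 5 members limma called 0, with 0 at an unadjusted p under 0.05.

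Me1 was above the floor on every CA array of the 3 small preparations too. In microdissected liver its intensity was 31 at 0.29% CA and 90 at 0.54% CA, against -6 and -12 on the control arrays. Both controls were thus at the floor, and the CA arrays lay at least 7.75-fold (0.29%) and at least 22.5-fold (0.54%) above a floor of 4, or at least 1.55-fold and 4.5-fold above a floor of 20. The doses averaged, with the spread pooled over all 15 groups and the lone CA arrays assumed to vary like the other groups, Me1 was called higher with a fitted log2 difference of 4.29 ± 0.58 (SE, limma adjusted p = 8.17e-07, 1.97 with a floor of 20 and limma adjusted p = 0.00348). It was the only member called, with 0 called lower, against 5.77% of all probe sets tested called higher and 15.3% whose CA arrays lay above both controls in deposited intensity. Groups of 1 array add nothing to the pooled spread, and both microdissected controls were at the floor. The SE thus holds no Me1 spread measured in microdissected liver. GAPDH ratios of the microdissected arrays were 14.3 and 9.22 in controls, 6.20 at 0.29% CA and 3.02 at 0.54% CA. Their 5S rRNA intensities were 97, 285, 319 and 754 in that order. These measures varied with dose, so their part cannot be told apart from it. Dehydrated sections had 6, 54 and 49 at 0, 0.29 and 0.54% CA, and LCM-reference-time sections -6, 60 and 54. These differences have no replicates and were not tested. In dehydrated sections they were 3.13 and 3.63 on the normalized log2 scale at 0.29 and 0.54% CA, above the 99.4th percentile of the probe sets that exceeded the floor on 1 or both arrays of the pair. The LCM-reference-time control was at the floor. In deposited intensity its CA arrays lay at least 15-fold (0.29%) and at least 13.5-fold (0.54%) above a floor of 4. Above a floor of 20 they lay at least 3-fold and 2.7-fold. On the normalized log2 scale the differences were 4.61 and 4.025, at the 98.96th and 98.22nd percentile of such probe sets.

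Stained sections gave less Me1 signal than entire sections at every dose. At 0.29% CA, stained sections averaged 72.3 ± 49.9 (SD, n = 7) and entire sections 273 ± 69.7 (SD, n = 8), 3.63-fold lower after normalization (log2 -1.86 ± 0.30, SE, limma adjusted p = 1.94e-05) and without overlap. At 0.54% CA the means were 111 ± 49.3 (SD, n = 5) in stained and 417 ± 115 (SD, n = 6) in entire sections, 3.45-fold lower (log2 -1.79 ± 0.36, SE, limma adjusted p = 6.62e-04), again without overlap. Among controls the means were 2.0 ± 5.56 in stained and 18.1 ± 7.0 in entire sections (SD, n = 8 each), a fitted log2 difference of -1.47 ± 0.29 (SE, limma adjusted p = 1.79e-04). That last call was lost with a floor of 20 (log2 -0.04) and when the GAPDH ratio entered as a covariate (log2 -0.77, limma adjusted p = 0.353). With that covariate 400 probe sets were called between stained and entire controls, against 2475 without it. Me1 was the only member called lower, against 13.8% of all probe sets tested in controls, 11.1% at 0.29% CA and 5.21% at 0.54% CA. In deposited intensity, stained arrays lay wholly below entire arrays for 2.84% at 0.29% CA and 4.41% at 0.54% CA.

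The CA effect on Me1 was then set against itself between the preparations. The difference, stained minus entire, was log2 -0.39 ± 0.42 (SE) at 0.29% CA and -0.32 ± 0.46 (SE) at 0.54% CA, and neither passed (limma adjusted p = 1.0 and 0.85). The 95% intervals, 0.421 to 1.38 times the entire-section effect at 0.29% and 0.420 to 1.54 times at 0.54%, leave room for sizeable differences. They also rest on the floor of 4, at which 6 of the 8 stained controls and 0 of the 8 entire controls lie. The stained rise is cut off there, so these intervals do not bound the true difference. With a floor of 20, at which all 8 stained controls lie and which therefore shortens the rise in stained sections, the differences were log2 -1.82 and -1.74 and were called (limma adjusted p = 0.00491 and 0.0159). Only 2 of the 8 entire controls lay above 20, so that floor shortens the rise in entire sections as well. Of the 5 members limma called 0 at either dose, with 1 (Acaca) at an unadjusted p under 0.05 at 0.29% and 0 at 0.54%, and 0.0855% and 0.134% of all probe sets tested were called.

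**Figure D2:**
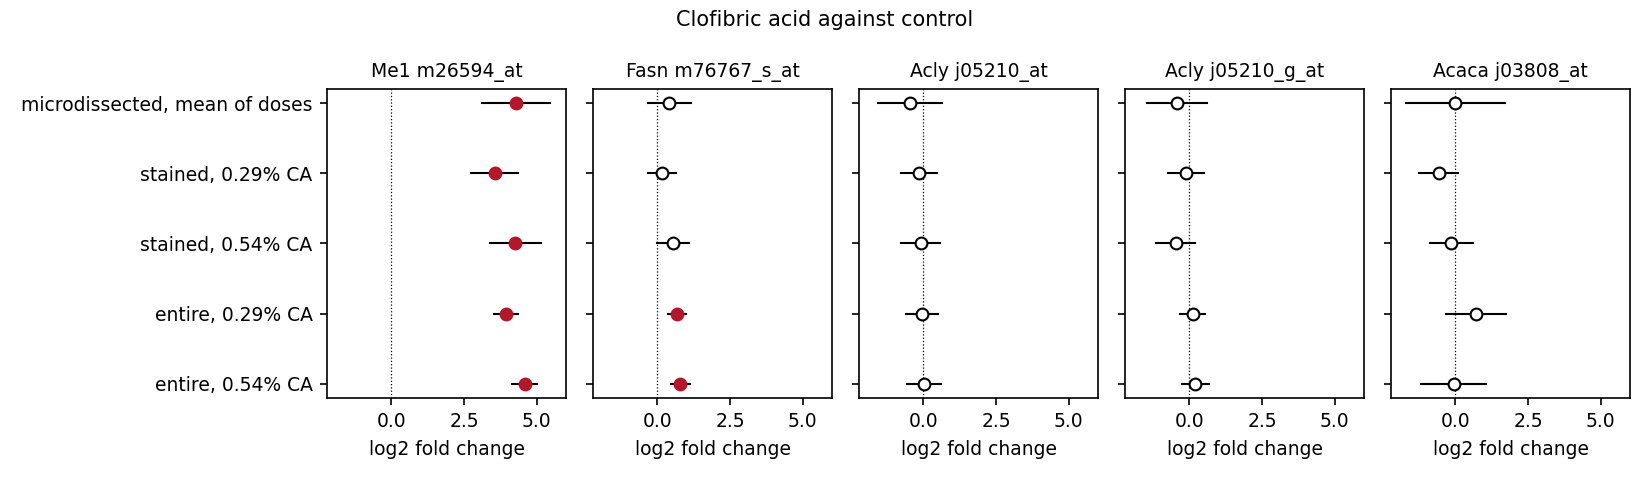
Fitted log2 fold change of CA against control (x axis) for each of the 5 probe sets, 1 panel each, in microdissected liver (mean of doses), stained and entire sections. Lines are 95% intervals and filled points are called at an adjusted p under 0.05: Me1 in all 5 contrasts, between 3.55 and 4.58, and Fasn in entire sections alone, at 0.68 and 0.79.

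Fasn, the multifunctional enzyme that makes palmitate, rose modestly with CA in entire sections. Its intensity had a lowest, median and highest value of 34, 41.5 and 59 in controls, 57, 71 and 85 at 0.29% CA and 53, 79 and 93 at 0.54% CA. In deposited intensity the ranges overlapped, since the highest control, at 59, lay above 2 of the 8 arrays at 0.29% CA and 1 of the 6 at 0.54% CA. After normalization it lay above 2 of the 8 and 0 of the 6. At 0.29% CA the mean was 70.75 ± 10.75 (SD, n = 8) against 43.6 ± 8.33 (SD, n = 8) in controls, 1.60-fold higher (95% interval 1.30 to 1.98, log2 0.68 ± 0.14, SE, limma adjusted p = 0.00251). At 0.54% CA it was 76.8 ± 13.3 (SD, n = 6), 1.73-fold higher than in controls (95% interval 1.38 to 2.17, log2 0.79 ± 0.16, SE, limma adjusted p = 0.00105). These rises ranked 274 of 433 and 370 of 632 by size among the probe sets called higher. The doses differed by 1.08-fold (95% interval 0.859 to 1.35, limma adjusted p = 0.862). Without the arrays that stand apart the rises were 1.65-fold (limma adjusted p = 0.00355) and 1.69-fold (limma adjusted p = 0.00423).

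In stained sections no Fasn difference between CA and control passed the test. The 8 controls ran from 16 through a median of 31.5 to 56, and the 7 arrays at 0.29% CA from 26 through 44 to 52, inside the range of the controls. The 5 arrays at 0.54% CA had 74, 40, 59, 51 and 60, of which 3 lay above the highest control in deposited intensity and 1 after normalization. The fitted folds were 1.12 (95% interval 0.795 to 1.57, limma adjusted p = 0.856) at 0.29% CA and 1.46 (95% interval 1.004 to 2.13, limma adjusted p = 0.266) at 0.54% CA. Before normalization, the folds of geometric mean intensity over control were 1.20 and 1.78 in stained sections at 0.29 and 0.54% CA. In entire sections they were 1.63 and 1.76. The difference of the CA effect between stained and entire sections was log2 -0.52 ± 0.27 (SE, limma adjusted p = 1.0) at 0.29% and -0.24 ± 0.29 (SE, limma adjusted p = 0.807) at 0.54%, so the effect is not shown to differ between them. In deposited intensity, stained arrays at 0.29% CA lay wholly below entire arrays at that dose, at 26 to 52 against 57 to 85, as they did for 2.84% of all probe sets tested. On the normalized scale of the test the groups overlapped, and that difference of 1.40-fold did not pass (limma adjusted p = 0.0626), and it passed at 1.49-fold without the arrays that stand apart (limma adjusted p = 0.0409), at 1.40-fold with a floor of 20 (0.0426) and at 1.42-fold with array weights (0.0308). It was 0.03 ± 0.19 on the log2 scale among controls and -0.21 ± 0.23 at 0.54% CA (SE, limma adjusted p = 0.948 and 0.692).

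The small preparations gave no common order for Fasn. Microdissected liver had 31 at 0.29% CA and 64 at 0.54% CA, against 32 and 35 on the control arrays, a fitted difference of 1.34-fold (95% interval 0.795 to 2.25, limma adjusted p = 0.563). The order depended on the scale: the array at 0.29% CA was below both controls in deposited intensity, while on the normalized log2 scale the CA arrays, at 6.08 and 6.02, lay above the controls, at 5.34 and 5.92. Dehydrated sections had 61, 55 and 23 at 0, 0.29 and 0.54% CA, and LCM-reference-time sections 29, 44 and 74. The first of these series was highest in the control and the other was highest at 0.54% CA, with 1 array at each point and no test.

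**Figure D3:**
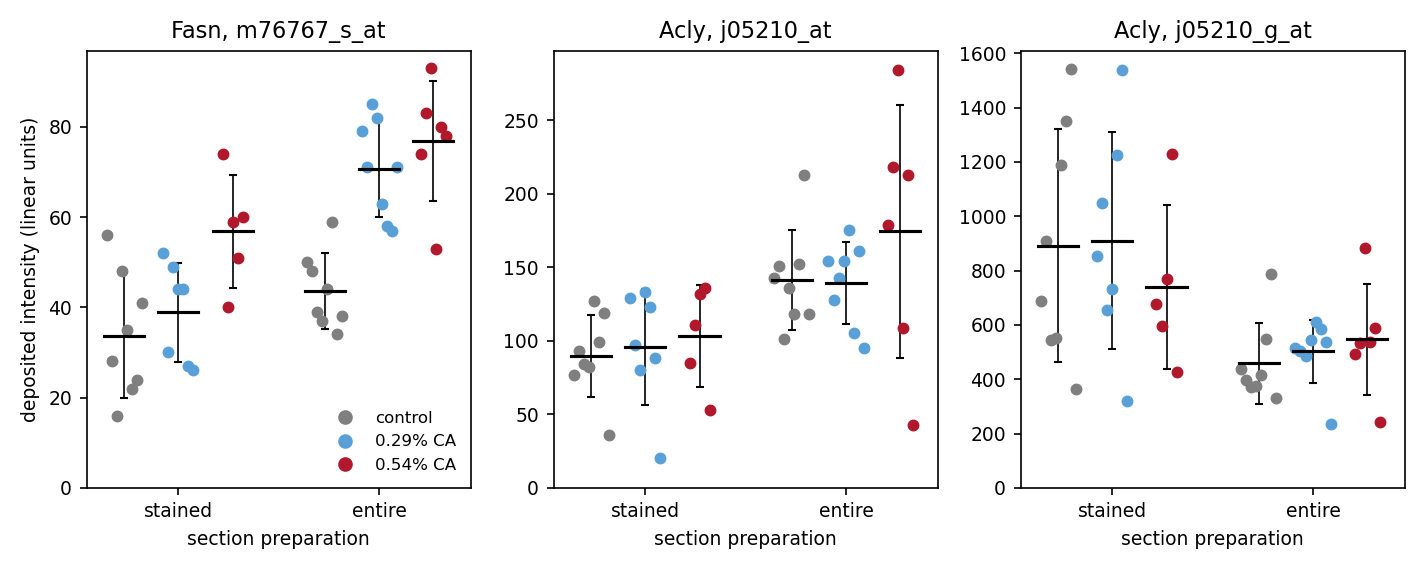
Deposited intensity (linear units, each panel with its own scale from 0) of Fasn and of both Acly probe sets on the 20 stained and 22 entire arrays, by dose (grey control, blue 0.29% CA, red 0.54% CA). Bars are means and whiskers SDs. Mean Fasn intensity is higher with CA in both preparations, and the rise was called, after normalization, in entire sections alone. The probe set j05210_g_at lies higher in stained than in entire sections while j05210_at does not.

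Neither Acly probe set was called different between CA and control arrays in any preparation tested. In entire sections j05210_at had a lowest, median and highest intensity of 101, 139.5 and 213 in controls, 95, 148.5 and 175 at 0.29% CA and 43, 196 and 284 at 0.54% CA. The ranges overlapped at every dose, and the 0.54% group was the widest, with its array at 43 below every other entire array. The same groups had 330, 406.5 and 788, then 234, 526.5 and 612, and then 242, 536 and 882 for j05210_g_at. The fitted folds for j05210_at were 0.966 (95% interval 0.662 to 1.41, limma adjusted p = 0.953) at 0.29% and 1.02 (95% interval 0.680 to 1.54, limma adjusted p = 0.981) at 0.54%. For j05210_g_at they were 1.09 (95% interval 0.810 to 1.46, limma adjusted p = 0.806) and 1.16 (95% interval 0.841 to 1.59, limma adjusted p = 0.607). These 4 intervals reach down to 0.662-fold and up to 1.59-fold.

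In stained sections, too, no Acly difference between CA and control passed. For j05210_at the lowest, median and highest values were 36, 88.5 and 127 in controls and 20, 97 and 133 at 0.29% CA, and the 5 arrays at 0.54% CA had 85, 111, 132, 136 and 53. For j05210_g_at they were 364, 798 and 1544 in controls and 319, 854 and 1537 at 0.29% CA, with 676, 597, 768, 1228 and 425 at 0.54% CA. CA and control ranges overlapped throughout. The 95% intervals of the fold were 0.584 to 1.37 and 0.588 to 1.504 for j05210_at, and 0.604 to 1.40 and 0.454 to 1.15 for j05210_g_at, at 0.29 and 0.54% in that order (limma adjusted p between 0.482 and 0.929). In microdissected liver j05210_at had 35 and 58 with CA at 0.29 and 0.54%, against 74 and 46 in controls, and j05210_g_at 277 and 464 against 1017 and 221 (fitted log2 -0.44 ± 0.54 and -0.42 ± 0.51, SE, limma adjusted p = 0.73 and 0.725). Of the single arrays, dehydrated sections had 69, 129 and 87 for j05210_at and 531, 1078 and 1578 for j05210_g_at at 0, 0.29 and 0.54% CA. LCM-reference-time sections had 6, 51 and 61 for j05210_at and 164, 232 and 543 for j05210_g_at. In deposited intensity the controls were lowest in both of these preparations, with 1 array at each point and no test. The LCM-reference-time control also had the lowest mean intensity over all probe sets of its preparation, 114 against 142 at 0.29% CA and 168 at 0.54% CA. After normalization its log2 value for j05210_g_at, 8.66, was not below that at 0.29% CA, 8.62.

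Between preparations the Acly probe sets parted. Among controls, j05210_g_at was higher in stained sections, at 892 ± 428 against 458 ± 148 in entire sections (SD, n = 8 each), 2.41-fold after normalization (95% interval 1.71 to 3.40, log2 1.27 ± 0.25, SE, limma adjusted p = 1.11e-04). At 0.29% CA it was 2.04-fold higher in stained sections (log2 1.03 ± 0.25, SE, limma adjusted p = 0.00253), and at 0.54% CA 1.51-fold, which did not pass (limma adjusted p = 0.241). It was the only member of the 5 called higher in stained sections, against 16.4% of all probe sets tested in controls and 11.7% at 0.29% CA. The values of j05210_at gave log2 -0.25 ± 0.28, -0.36 ± 0.28 and -0.37 ± 0.33 (SE) for controls, 0.29% and 0.54% CA, none of which passed (limma adjusted p = 0.549, 0.405 and 0.603). The GAPDH ratio was higher in stained sections too, and once it entered the fit j05210_g_at was 1.38-fold higher in controls (limma adjusted p = 0.526) and 1.30-fold at 0.29% CA (limma adjusted p = 0.627), no longer called. The median ratio was 1.36 in entire and 10.2 in stained controls, so such a fit can hardly separate it from preparation. With it, calls over all probe sets fell from 2475 to 400 in controls and from 1868 to 345 at 0.29% CA. The lost calls are thus not particular to j05210_g_at, and their cause was not tested.

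The ratio of j05210_g_at to j05210_at on the same array did not overlap between stained and entire controls. Its log2 was 3.24 ± 0.39 in stained and 1.68 ± 0.21 in entire controls (SD, n = 8 each), and the lowest stained control, at 2.69, lay above the highest entire control, at 1.89. The ratio was 2.96-fold higher in stained controls (two-sided exact permutation p = 1.554e-04, the smallest that 8 against 8 arrays can give, adjusted p = 0.00109 over 7 such tests). At 0.29% CA the log2 ratio was 3.30 ± 0.62 in stained sections (SD, n = 7) and 1.83 ± 0.33 in entire sections (SD, n = 8), a 2.77-fold difference (exact permutation adjusted p = 0.00218). At 0.54% CA the log2 ratio was 2.83 ± 0.32 in stained sections (SD, n = 5) and 1.78 ± 0.50 in entire sections (SD, n = 6), a 2.07-fold difference (exact permutation adjusted p = 0.0202), where the groups overlapped slightly as they did at 0.29%. Without the arrays that stand apart the folds were 2.99, 2.54 and 1.93, and the last no longer passed (exact permutation adjusted p = 0.0741). The ratio did not pass between CA and control arrays in 4 tests, with log2 differences of 0.15 and 0.10 in entire sections and 0.06 and -0.41 in stained sections at 0.29 and 0.54% CA (exact permutation adjusted p between 0.133 and 0.817). These tests were chosen after the values had been seen. The ratio was not compared with ratios of other pairs of probe sets. Between stained and entire controls 30.2% of all probe sets tested were called, so the shift is not shown to be particular to Acly. The linear ratio had a median of 7.96 in microdissected (4 arrays), 8.98 in stained, 8.36 in dehydrated (3 arrays), 8.90 in LCM-reference-time (3 arrays) and 3.38 in entire sections. Median GAPDH ratios in the same order were 7.71, 8.45, 11.8, 4.70 and 1.54. The place of both probe sets along the transcript is not given in the sources used here, and the part of RNA quality in the ratio was not tested.

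**Figure D4:**
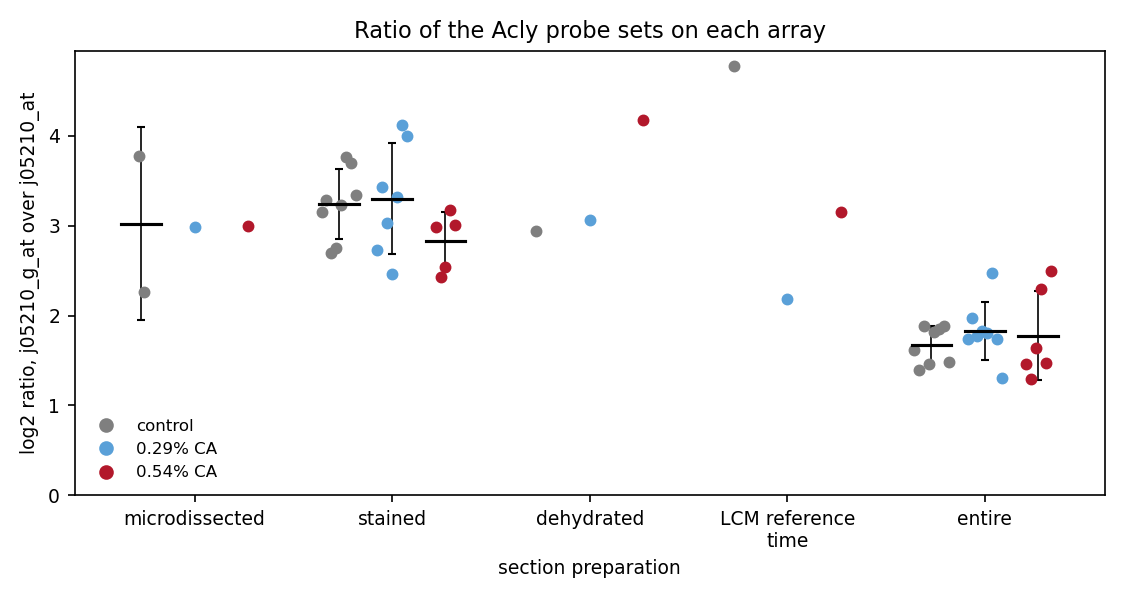
Log2 ratio of the deposited intensities of j05210_g_at over j05210_at on each of the 52 arrays, by section preparation and dose (grey control, blue 0.29% CA, red 0.54% CA). Bars are means and whiskers SDs for groups of more than 1 array; stained controls lie at 2.69 to 3.77 and entire controls at 1.40 to 1.89.

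Acaca, which encodes the carboxylase of the committed step, gave hardly any signal on these arrays. Its probe set was above the floor on 17 of 52 arrays, with 0 of 4 in microdissected liver, 7 of 20 in stained, 1 of 3 in dehydrated, 1 of 3 in LCM-reference-time and 8 of 22 in entire sections, and no array exceeded 35. In entire sections the controls ran from -7 to 14, the 8 arrays at 0.29% CA had 35, 33, 34, 5, -1, -1, -7 and 1, and those at 0.54% CA ran from -9 to 18. Thus 3 arrays at 0.29% CA lay above all the others, and the remaining 5 lay within the range of the controls. Acaca was called in 0 of 12 comparisons by limma, with 2 at an unadjusted p under 0.05, namely stained against entire sections at 0.29% CA and the difference of the CA effect at that dose. With a floor of 20 the first of these was called (log2 -0.18, limma adjusted p = 0.0179). At this signal a change in Acaca RNA was not detectable, and its absence is not shown.

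Within groups, the Acly probe sets varied together. The deviations of both from their group means had a Pearson r of 0.65 over 20 stained and 0.71 over 22 entire arrays, as a description of arrays that share preparation and signal strength. Between Me1 and Fasn it was 0.22 in stained and -0.09 in entire sections, and the other pairs of members lay between -0.51 and 0.52. Over the 42 entire and stained arrays, the probe sets whose normalized log2 values followed Me1 most closely were x07259cds_s_at (Pearson r 0.95) and rc_ai170568_s_at (0.94). For Fasn they were m89945mrna_g_at (0.67) and rc_aa924267_s_at (0.64), for j05210_at rc_aa799804_at (0.82) and rc_aa891810_g_at (0.79), and for j05210_g_at rc_aa859919_g_at (0.93) and rc_aa859938_at (0.92). Candidates were the 2778 to 2780 probe sets above the floor on all of those arrays, other than those of the same accession. These correlations span the dose and preparation groups, and the files used here pair none of the candidates with a gene name.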

How the data were processed

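Total RNA of rat liver sections was measured on 52 one-colour arrays. The deposited table holds linear intensities, whole numbers with 1 value for each probe set on each array, as the values show. The authors' software and scaling are not stated. The number of arrays limits the precision. Groups and replicate numbers come from the labels' titles. Nothing in the labels says that replicates of a group are separate animals, so the p-values reflect only the spread between samples, which may be technical. Gene names of the accessions are general knowledge, and 0 probe set accessions matched the gene table, so the pathway and cell type lists drawn up for this work could not be used. The members, lists and limits were chosen with earlier results of these data known, among them the rise of m26594_at.

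Intensities under 4 were raised to 4, log2 transformed and quantile normalized over 8740 non-control probe sets of all 52 arrays, leaving out 59 controls. Group means were fitted with limma 3.58.1 in R 4.3.3 (lmFit, eBayes, two-sided, Benjamini-Hochberg over the probe sets above the floor on at least 1 array): the 3 entire groups together, the 3 stained groups together, those 6 for contrasts between them, and all 15 groups for microdissected liver. Group means of the log2 ratio of the Acly probe sets were compared by exact permutation tests (SciPy 1.17.1, Python 3.11.15). All members were named. The most alike probe sets were taken by Pearson r. Alternatives were the deposited scale centred on each array's median, array weights, a floor of 20, filtering on low means (25th percentile), trended robust priors, the GAPDH ratio as a covariate, other groups in the fit, the replicate number as a block, and leaving out the 6 arrays that stand apart or each replicate. The alternatives for the Acly ratio were chosen after seeing the data. Calls were tested on simulated data with changes added to probe sets well above the floor, which does not cover groups at the floor. No 2 arrays held identical values. Plots were drawn with matplotlib 3.10.9.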

Additional observations from a re-analysis of the deposited data

Results flagged for a closer look

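Of 36 groups of 5 to 8 arrays checked, 1 array stood far from the rest of its group for 3 probe sets and groups, where chance gives about 1 in 20. Among entire controls, replicate 7 had an intensity of 213 for Acly j05210_at, with the next highest control at 152 and the lowest at 101. This array also stands apart by its GAPDH 3'/5' ratio, 6.25. Among entire sections at 0.29% CA, replicate 8 had 234 for Acly j05210_g_at, with the next lowest at 487 and the highest at 612. Among stained sections at 0.29% CA, replicate 7 had -13 for Acaca j03808_at, with the next lowest at 0 and the highest at 5, all but the highest at or under the floor. That array is 1 of the 3 stained arrays with a high 5S rRNA intensity, here 241.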

How the results depend on the processing

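Me1 rose with CA in entire, stained and microdissected liver under every alternative run, always called, with log2 values between 1.57 (stained, 0.29%, floor of 20) and 4.72. The Fasn rises in entire sections stayed between 1.53-fold and 1.81-fold and were called throughout. With a floor of 20, Me1 passed between the doses in entire sections (log2 0.64), lost its call between stained and entire controls (-0.04368) and gained calls for the difference of its CA effect (-1.82 and -1.74), and Fasn passed between stained and entire sections at 0.29% CA (-0.486). That Fasn difference also passed with array weights (-0.500) and without the arrays that stand apart (-0.579), and ran from -0.553 to -0.423 on leaving out 1 array, passing without entire replicate 7 or stained replicate 1 or 3. With the GAPDH ratio as a covariate, the stained-entire differences of Me1 in controls (-0.770) and of j05210_g_at in controls (0.464) and at 0.29% CA (0.378) lost their calls; the cause was not tested. Most other changes were of sign, in differences not called here. With the covariate, j05210_at was -0.0439 (entire, 0.54% CA), 0.0288 (stained, 0.54% CA) and 0.0813 (effect difference at 0.54%), and j05210_g_at -0.0299 (doses, entire), 0.0833 (stained, 0.29% CA) and 0.0579 (microdissected). With array weights, j05210_at was 0.0096 (entire, 0.29% CA) and -0.132 (doses, stained), and the Me1 effect difference at 0.29% was 0.0092. Without the arrays that stand apart, j05210_at was 0.0128 (entire, 0.29% CA) and -0.0050 (doses, entire), Fasn in stained against entire controls was -0.0564, and the Acly ratio was -0.042 (stained, 0.29% CA against control) and 0.946, no longer called, in stained against entire sections at 0.54% CA.

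Leaving out 1 array gave, for j05210_at, -0.104 to 0.0286 and -0.156 to 0.379 (entire, 0.29 and 0.54% CA), -0.106 to 0.429 (doses, entire), -0.326 to 0.0773 and -0.255 to 0.0933 (stained, 0.29 and 0.54% CA), -0.167 to 0.254 (doses, stained), and -0.276 to 0.127 and -0.468 to 0.0665 (effect differences). For j05210_g_at it gave -0.255 to 0.0145 (stained, 0.29% CA), -0.0626 to 0.221 (doses, entire) and -1.083 to 0.247 (microdissected), for Fasn -0.0826 to 0.182 (stained against entire controls), and for the Acly ratio -0.0418 to 0.198 (entire, 0.54% CA) and -0.0778 to 0.200 (stained, 0.29% CA), all on the log2 scale and none called.

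Replicate numbers were not taken to pair the samples, since in every contrast at least 1 same-numbered pair correlated under 0.1 (lowest -0.32 to -0.04). This does not show that the samples share no animal or batch. Same-numbered arrays did correlate in part: 6 of 7 pairs of stained arrays at 0.29% CA and control were over 0.1 (mean 0.355, highest 0.679, against a mean of -0.05 for other numbers), as were 5 of 8 such pairs in entire sections (mean 0.197). With the replicate block, 211 probe sets differed between the doses in entire sections, against 79 without it, 1 in stained sections against 5, and j05210_at between the stained doses was -0.000477. It changed no call of a member. The permutation tests of the Acly ratio were not run with pairs or blocks. Between stained and entire sections, same-numbered arrays had a mean correlation of 0.112 in controls, 0.094 at 0.29% CA and 0.175 at 0.54% CA. Other numbers averaged -0.017, -0.0097 and -0.033 in that order. In no contrast did every sample correlate best with its own number.

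Counts over all probe sets moved by over 1.5 times as follows. All 15 groups in the fit gave 539 and 790 calls in entire sections (877 and 1236 here) and 546 and 964 in stained sections (286 and 499 here), and array weights 1933 at 0.54% CA in entire sections. Between the doses there were 33 to 331 calls in entire and 1 to 19 in stained sections. Stained against entire controls gave 3798 on the deposited scale (2475 here), where 74.2% were higher against 54.4% here, and 400 with the covariate, which gave 345 at 0.29% CA (1868 here), 549 at 0.54% CA (830 here) and 301 for stained sections at 0.54% CA. Effect differences gave 4 to 17 calls at 0.29% and 6 to 30 at 0.54%, and microdissected liver 312 to 1841 (1069 here). Signal over background limits Acaca and the Me1 folds of every preparation, entire sections included, where most controls did not exceed 20.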
